A study of Homo sapiens with 2 samples.

Results

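The short arm of chromosome 6 carries, on either side of the major histocompatibility complex (MHC), genes for transcription factors, chromatin proteins, splicing and ribosome factors, stress kinases, metabolic enzymes and epithelial surface proteins. They form no single pathway, and what they share is their place on the arm. The MHC between them, which holds the genes of antigen presentation, is not described. The genes described here are 198 of the 29972 in the deposited table. They were chosen by position, with a coding interval that starts between 2.8 and 26 Mb or between 33.4 and 54 Mb of chromosome 6 (GRCh38), and by a read count of at least 100 in the higher of the 2 libraries. Of 479 genes in these intervals, 226 reached that count, and 28 of them were left out by a list of symbols, among them kinesins, serpins, potassium channels and ribosomal proteins. Another 239 genes of the intervals stayed under 100 reads in both libraries and are not described. The intervals were proposed with results of these libraries known, so the levels below are a description and carry no test.

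The material was 1 T-DM1-refractory tumour and 1 untreated tumour of NCI-N87, an established human gastric carcinoma line with amplified ERBB2 (HER2), grown under the skin of nude mice. T-DM1 (trastuzumab emtansine) is an antibody against HER2 that carries a microtubule poison, and it was given once every 3 weeks for 18 weeks. Each tumour gave 1 library of polyadenylated RNA, so no difference has a replicate check and no p-value was computed. Both tumours came from the same line in nude mice, and the labels give no sex, age or number of pooled animals. In such bulk RNA, fewer cells of a type and less RNA per cell cannot be told apart, and no DNA was measured in these files.

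The refractory library held 59902704 expected counts and the untreated library 75722117. Levels are CPM, that is, counts divided by the TMM-scaled size of the library. The 7 epithelial markers of a fixed list were between 189 and 7975 CPM in the refractory tumour and between 89.7 and 7267 CPM in the untreated one. Of 5 endothelial markers, 3 were at 0 in the refractory library and 1 in the untreated library, with none above 0.202 CPM in the refractory and 1.39 CPM in the untreated tumour. Of 6 fibroblast markers 3 were at 0 in each library, and the highest, COL1A1, stood at 1.804 CPM in the refractory and 2.92 CPM in the untreated tumour. The 6 leukocyte markers summed to 130 CPM in the refractory and 31.7 CPM in the untreated tumour. LYZ made up most of that sum (95.9 CPM in the refractory, 27.2 CPM in the untreated tumour). CD68 stood at 29.2 CPM refractory and 3.62 CPM untreated, ITGAM at 3.32 and 0.419 CPM, and CD14 at 1.43 and 0.445 CPM. The pan-leukocyte gene PTPRC stood at 0.287 CPM in the refractory and 0.0654 CPM in the untreated tumour, and CD3E at 0 in both. These are human genes and the hosts were mice, so the values do not count host cells.

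Most of the 198 genes were higher in the refractory tumour. At least 2-fold higher were 70 genes (35.4%), against 9.91% of all 13664 genes with 100 reads or more. At least 2-fold lower were 10 genes (5.05%), against 11.2% of all genes. Those between numbered 118, and 92 of these were still above 0. In total 162 (81.8%) were above 0, against 51.7% of all genes. The median log2 difference, refractory over untreated with 1 CPM added to both, was 0.75 (1.68-fold), and over all genes it was 0.03. The interquartile range was 0.96 for the 198 genes and 0.84 for all genes. A difference of 1.5-fold to 3-fold higher was held by 100 of the 198 genes (50.5%), against 15.1% of all genes.

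The difference was not even along the arm. In windows of 4 Mb counted from the start of each interval, the median log2 was 0.90, 1.21, 1.01, 0.67, 0.55 and 1.19 in the first interval, the 4 genes between 18.8 and 22.8 Mb giving the lowest. In the second interval it was 1.11 in the window from 33.4 to 37.4 Mb and 0.80 in the next. From 41.4 to 45.4 Mb it was 0.23, where 1 of 46 genes was 2-fold higher and 2 were 2-fold lower. From 45.4 to 49.4 Mb it was -0.51 over 10 genes, and from 49.4 to 53.4 Mb it was again 0.91 over 15 genes.

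In the order of the genes described here, which leaves out those with few reads, the last of the high values before 41.4 Mb lay at UNC5CL. UNC5CL, which encodes a mucosal death-domain protein (coding interval from 41028373), stood at 28.1 CPM in the refractory and 5.95 CPM in the untreated tumour. After it in that order OARD1, an ADP-ribose hydrolase, stood at 35.8 CPM in the refractory and 23.02 CPM in the untreated tumour (log2 0.61). The next in that order, NFYA, a subunit of the CCAAT-binding factor NF-Y (coding interval from 41079090), stood at 76.8 CPM in the refractory and 93.5 CPM in the untreated tumour, log2 -0.28. RefSeq lists the start of NFYA 360 bases from the nearest start of OARD1, on the opposite strand.

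The return lay between TDRD6 (2.22 CPM in the refractory, 4.53 CPM in the untreated tumour), a tudor-domain gene of germ cells, and TNFRSF21 (337 CPM refractory, 58.4 CPM untreated), which encodes death receptor 6. With bounds set at these genes after the values were seen, the second interval splits into a start, a middle and an end. The 72 genes of the first interval had a median log2 of 0.96, with 32 at least 2-fold higher and 2 lower. At the start of the second interval (33.41 to 41.07 Mb) 50 genes gave a median of 1.09, 28 of them higher and 2 lower. In the middle (41.08 to 46.7 Mb) 56 genes gave a median of 0.17, 1 of them higher and 5 lower. At the end (47.23 to 53.92 Mb) 20 genes gave a median of 0.93, 9 of them higher and 1 lower. Outside the middle, 130 of 142 genes (91.5%) were above 0 and 69 (48.6%) were 2-fold higher. In the middle 32 of 56 (57.1%) were above 0, close to the 51.7% of all genes.

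**Figure D1:**
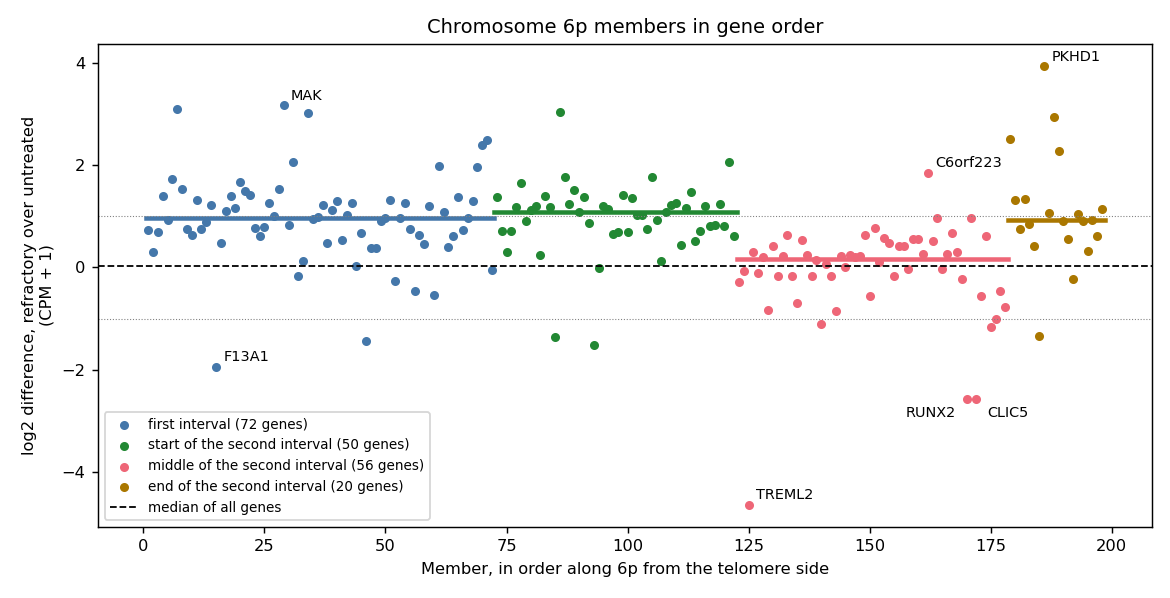
Log2 difference of each of the 198 genes (refractory over untreated, CPM + 1) in their order along 6p; points are genes, coloured bars the median of each stretch, the dashed line the median of all genes (0.03) and dotted lines 2-fold. The middle of the second interval lies near the dashed line (median 0.17), and the other 3 stretches lie near 1 (medians 0.96, 1.09 and 0.93).

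The rest of chromosome 6 frames this profile. The 156 genes with 100 reads between the intervals, where the MHC lies, had a median log2 of 0.83, and 61 were at least 2-fold higher. The 8 genes before 2.8 Mb had a median of 0.58. After 54 Mb, a stretch that includes the long arm, 318 genes had a median of -0.07, 28 of them higher (8.81%) and 38 lower (11.9%). Over all genes the shares were 9.91% and 11.2%. The medians of the 22 other chromosomes (1 to 22 and X without 6) ran from -0.27 on chromosome 13 to 0.20 on chromosome 22.

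**Figure D2:**
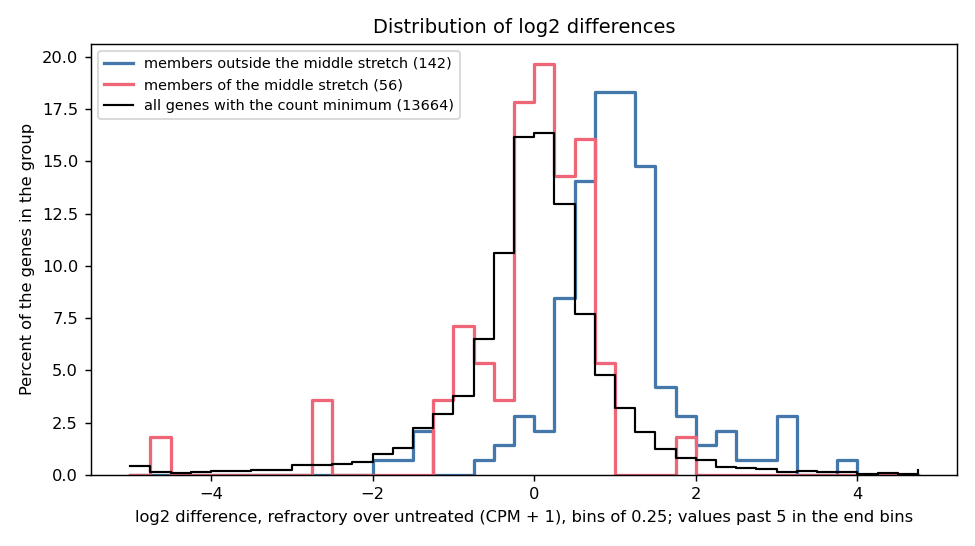
Percent of genes in bins of 0.25 log2 (refractory over untreated, CPM + 1) for the 142 genes outside the middle stretch, the 56 genes of the middle stretch and all 13664 genes with 100 reads. The curve of the 142 genes is centred at a median of 0.98, and that of the 56 genes lies close to the curve of all genes (medians 0.17 and 0.03).

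To show promoters on both sides of these changes of level, together with those of the most changed genes, the 250 bases before the RefSeq start (GRCh38.p14) are printed 5′ to 3′ on the gene's strand. Capitals mark matches, on either strand, to 5 motifs: the TATA box (TATAAA), the CCAAT box (CCAAT), the GC box (GGGCGG), the core of hypoxia response elements (ACGTG) and the AP-1 element (TGANTCA).

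PKHD1 (chr6:52087614-52087863, minus strand), the largest log2 upward with 1 CPM added: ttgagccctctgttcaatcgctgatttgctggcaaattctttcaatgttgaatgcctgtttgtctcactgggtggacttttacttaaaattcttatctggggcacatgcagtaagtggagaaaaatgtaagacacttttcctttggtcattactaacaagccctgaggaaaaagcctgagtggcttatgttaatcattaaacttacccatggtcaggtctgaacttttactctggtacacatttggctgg

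TREML2 (chr6:41201150-41201399, minus strand), the largest log2 downward with 1 CPM added: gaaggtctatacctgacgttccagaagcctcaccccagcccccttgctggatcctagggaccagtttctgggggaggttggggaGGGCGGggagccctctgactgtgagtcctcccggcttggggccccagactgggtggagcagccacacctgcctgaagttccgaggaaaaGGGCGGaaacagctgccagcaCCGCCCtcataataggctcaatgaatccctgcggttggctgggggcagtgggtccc

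UNC5CL (chr6:41039222-41039471, minus strand), before the change of level: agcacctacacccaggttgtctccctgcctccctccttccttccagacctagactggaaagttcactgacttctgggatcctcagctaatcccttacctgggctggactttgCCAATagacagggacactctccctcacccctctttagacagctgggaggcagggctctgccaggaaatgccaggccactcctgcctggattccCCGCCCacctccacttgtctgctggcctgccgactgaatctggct

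NFYA (chr6:41072724-41072973, plus strand), after the change of level: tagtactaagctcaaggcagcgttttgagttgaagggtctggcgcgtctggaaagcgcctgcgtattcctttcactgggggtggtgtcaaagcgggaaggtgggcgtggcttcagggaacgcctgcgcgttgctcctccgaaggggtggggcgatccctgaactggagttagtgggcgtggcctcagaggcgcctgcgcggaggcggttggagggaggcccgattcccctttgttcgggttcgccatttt

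TNFRSF21 (chr6:47309906-47310155, minus strand), after the return: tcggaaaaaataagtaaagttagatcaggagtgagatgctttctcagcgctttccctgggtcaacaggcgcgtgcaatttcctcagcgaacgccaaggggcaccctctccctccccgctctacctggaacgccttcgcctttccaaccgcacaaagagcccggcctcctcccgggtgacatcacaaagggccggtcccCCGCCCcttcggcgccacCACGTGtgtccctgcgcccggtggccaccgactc

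The promoters of NFYA and TNFRSF21 have 20 CpG in 250 bases each, and that of PKHD1 has 1. The median was 19 over the matched promoters of the genes described here and 21 over genes with 100 reads. TREML2 has 3 GC boxes, UNC5CL a CCAAT box and a GC box, and TNFRSF21 a GC box and a CACGTG that matches the hypoxia core on both strands. None of the 5 motifs was in the windows of PKHD1 and NFYA. RefSeq entries were matched for 167 of the 198 genes, 1 start for each. A GC box stood in 67.1% of these promoters, a CCAAT box in 34.7%, the hypoxia core in 22.2%, a TATA box in 4.79% and an AP-1 element in 3.59%. Among the 9846 genes with 100 reads and an entry, the shares were 66.4%, 35.0%, 23.3%, 5.61% and 4.10%, and among all 27305 genes with a RefSeq promoter entry they were 42.3%, 33.0%, 18.7%, 11.1% and 6.60%. A match is only a run of letters.

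With 1 CPM added PKHD1 had the largest log2 (3.94). With 0.1 CPM added SPDEF lay above it (5.01 for SPDEF, 4.59 for PKHD1). On FPKM with 1 FPKM added the largest was EDN1 (2.85, against 1.56 for PKHD1). PKHD1 stood at 2.20 FPKM in the refractory and 0.0869 FPKM in the untreated tumour, so the added 1 FPKM shrinks its log2. PKHD1 encodes fibrocystin, a receptor-like protein of cilia that is mutated in recessive polycystic kidney disease. Its level was 35.3 CPM in the refractory and 1.37 CPM in the untreated tumour, a ratio of 25.7 (95% interval 21.1 to 31.6). Such intervals are exact for 2 Poisson counts and cover counting error only. Next came MAK, among the genes with the largest log2 at 5 CPM or more in the higher library. MAK, a kinase of the ciliary axoneme, stood at 17.1 CPM in the refractory and 1.01 CPM in the untreated tumour, a ratio of 17.0 (95% interval 13.4 to 21.7). ICK, a kinase like MAK that was named after its value was seen, differed little, with 42.7 CPM in the refractory and 34.1 CPM in the untreated tumour.

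SPDEF, an ETS transcription factor that drives secretory and goblet cell differentiation in the gut, had 512 counts in the refractory and 13 in the untreated library (8.63 CPM refractory, 0.170 CPM untreated), a ratio of 50.8 (95% interval 29.4 to 95.98). EDN1, the precursor of the vasoconstrictor endothelin-1, stood at 49.5 CPM in the refractory and 5.23 CPM in the untreated tumour. TNFRSF21 stood, in FPKM, which scales counts by gene length as well as library size, at 99.5 FPKM in the refractory and 17.5 FPKM in the untreated tumour, a CPM ratio of 5.77 (95% interval 5.58 to 5.96). Others were PXDC1, a PX-domain gene (20.4 CPM refractory, 1.52 CPM untreated), PAQR8, a membrane progesterone receptor (47.7 CPM refractory, 5.32 CPM untreated), LRRC16A, now CARMIL1, a regulator of actin capping (168 CPM refractory, 28.9 CPM untreated), and UNC5CL. NEDD9, a scaffold of focal adhesion signalling, stood at 185 CPM in the refractory and 43.6 CPM in the untreated tumour, and GMNN, geminin, the inhibitor of replication licensing, at 75.01 CPM in the refractory and 18.5 CPM in the untreated tumour. None of the 11 genes of this group named here lay in the middle stretch. Its bounds were set after the values were seen, close to UNC5CL and TNFRSF21, so for these genes that follows from the choice of bounds.

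Genes that were at least 2-fold lower were few and scattered. TREML2, a TREM-like receptor of immune cells, lay lowest of the 198, with 0.438 CPM in the refractory and 34.7 CPM in the untreated tumour, a 79.3-fold lower level (95% interval 54.0 to 122). Whether leukocytes had a part in this value was not tested, and the human leukocyte markers above do not count host cells of the mouse. RUNX2, the osteoblast transcription factor, was 6.36-fold lower (11.7 CPM in the refractory, 74.5 CPM in the untreated tumour, 95% interval 5.88 to 6.89). CLIC5, a chloride intracellular channel protein tied to the actin cortex, was 6.43-fold lower (9.62 CPM refractory, 61.8 CPM untreated). All 3 lie in the middle stretch, as do RCAN2, a calcineurin regulator (0.573 CPM refractory, 2.54 CPM untreated), and the unnamed locus FLJ38717 (3.03 CPM refractory, 7.63 CPM untreated). RUNX2 and SUPT3H overlap on opposite strands and the strand setting of the counts is not given, so their reads may be mixed. SUPT3H, a subunit of the SAGA complex, stood at 13.4 CPM in the refractory and 6.42 CPM in the untreated tumour.

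Outside the middle, 5 genes were 2-fold lower, each at a low level in both tumours. DEF6, an exchange factor of lymphocytes, stood at 1.89 CPM in the refractory and 7.25 CPM in the untreated tumour. GMPR, the GMP reductase, stood at 0.287 CPM in the refractory and 2.49 CPM in the untreated tumour and PACSIN1, an endocytic adaptor of neurons, at 0.354 CPM in the refractory and 2.49 CPM in the untreated tumour. F13A1, the A chain of coagulation factor XIII, had 0 of 59902704 counts in the refractory library, which allows up to 0.0506 CPM, and 2.82 CPM in the untreated one, at least 55.9-fold lower at a floor of 3 counts per library. The exact 95% lower limit, which also allows for the counting error of the untreated library, was 45.0-fold. CRISP3, a secreted protein, had 2 counts in the refractory and 124 in the untreated library, a 48.1-fold lower level (95% interval 13.04 to 402).

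**Figure D3:**
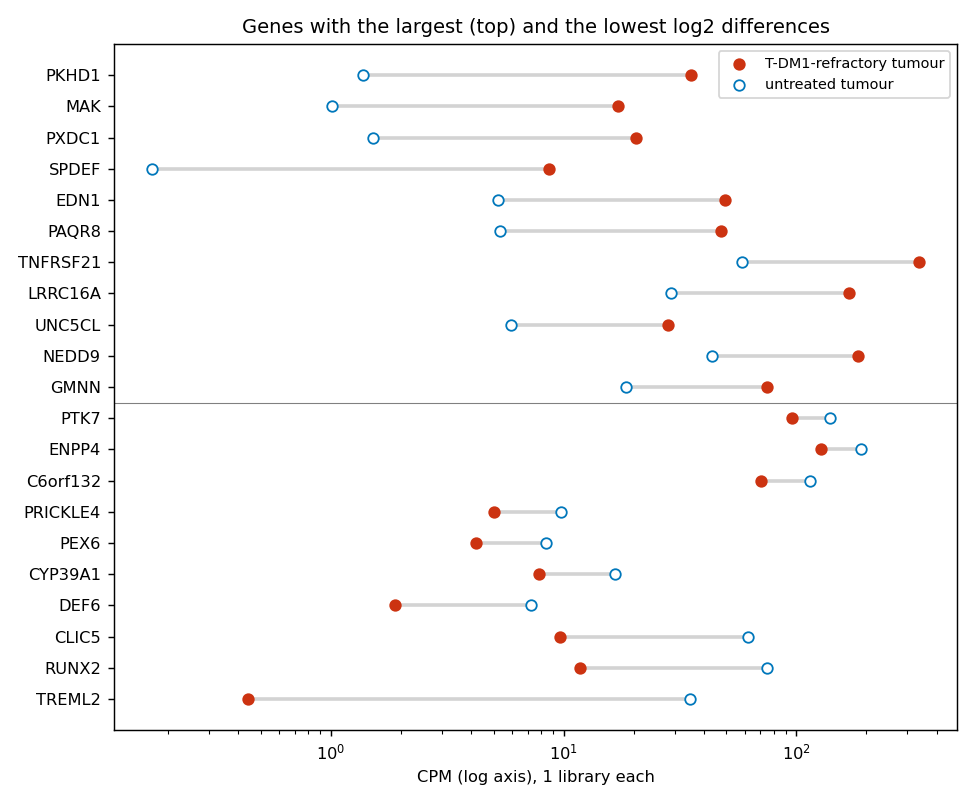
CPM on a log axis in the refractory tumour (filled) and the untreated tumour (open) for 11 genes with the largest log2 and the 10 with the lowest log2, among genes with 5 CPM or more in the higher library. The higher genes run from PKHD1 (35.3 CPM refractory, 1.37 CPM untreated) to GMNN (75.01 CPM refractory, 18.5 CPM untreated), and at the other end TREML2 stands at 0.438 CPM in the refractory and 34.7 CPM in the untreated tumour.

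Next come the roles of the genes, in 8 lists drawn up with earlier results of these libraries known. Together they hold 139 of the 198 genes. Of the 139, 45 (32.4%) were at least 2-fold higher and 6 (4.32%) lower, against 9.91% and 11.2% of all genes. Of 31 transcription factors and chromatin proteins, 8 were at least 2-fold higher, 1 lower and 22 between, with a median log2 of 0.48. All 8 lie outside the middle. Behind SPDEF came PHF1, an accessory protein of Polycomb repressive complexes (24.2 CPM in the refractory, 8.66 CPM in the untreated tumour). CDYL, a chromodomain corepressor, stood at 76.96 CPM in the refractory and 30.3 CPM in the untreated tumour, KDM1B, a histone demethylase, at 72.9 CPM in the refractory and 29.7 CPM in the untreated tumour, and HMGA1, an architectural chromatin protein with several pseudogenes, at 130 CPM in the refractory and 55.98 CPM in the untreated tumour. TEAD3, a DNA-binding partner of YAP, stood at 49.3 CPM in the refractory and 21.7 CPM in the untreated tumour. DEK, a chromatin protein often raised in carcinomas, was the most abundant by CPM (465 CPM refractory, 275 CPM untreated, a ratio of 1.69, 95% interval 1.66 to 1.72).

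Other regulators lay below the median of their stretch. The nuclear receptor PPARD stood at 34.5 CPM in the refractory and 34.6 CPM in the untreated tumour, and JARID2, a Polycomb partner, at 18.6 CPM in the refractory and 18.2 CPM in the untreated tumour. SOX4, a developmental HMG-box factor, stood at 94.5 CPM in the refractory and 137 CPM in the untreated tumour, log2 -0.53. E2F3, a driver of the cell cycle, stood at 55.4 CPM in the refractory and 40.0 CPM in the untreated tumour, and ATXN1 at 138 CPM in the refractory and 106 CPM in the untreated tumour. In the middle stretch, 11 members of this list had a median of 0.22. RUNX2 was the lone one past 2-fold with 1 CPM added, and SUPT3H had a CPM ratio of 2.09 but lay between on that scale.

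RNA processing, ribosome assembly and translation factors counted 21, of which 8 were higher, 0 lower and 13 between (median 0.75). The largest were RIOK1, a kinase of small ribosomal subunit maturation (58.0 CPM in the refractory, 21.3 CPM in the untreated tumour), and NUP153, a nuclear pore protein (189 CPM refractory, 75 CPM untreated). SNRPC, a U1 snRNP protein, stood at 53.4 CPM in the refractory and 22.1 CPM in the untreated tumour and NOL7, a nucleolar protein, at 56.3 CPM in the refractory and 22.3 CPM in the untreated tumour. SRSF3, a splicing factor, was the most abundant by CPM and differed little (364 CPM refractory, 335 CPM untreated, ratio 1.09, 95% interval 1.07 to 1.11). PRPF4B, a spliceosomal kinase, stood at 343 CPM in the refractory and 203 CPM in the untreated tumour. CDC5L, a core spliceosome protein of the middle stretch, was lowest (116 CPM refractory, 135 CPM untreated), and the other middle members were between it and BYSL, a ribosome assembly factor (20.7 CPM refractory, 13.03 CPM untreated).

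In the list of DNA replication, repair and cell division, all 9 genes were above 0, with 3 of them 2-fold higher (median 0.73). GMNN led, then FANCE of the Fanconi anaemia core complex (8.31 CPM in the refractory, 3.03 CPM in the untreated tumour) and MCM3 of the replicative helicase (171 CPM refractory, 81.6 CPM untreated). TDP2, the phosphodiesterase that repairs topoisomerase II breaks, stood at 78.3 CPM in the refractory and 46.9 CPM in the untreated tumour. PPP2R5D, a regulatory subunit of protein phosphatase 2A in the middle stretch, was level at 48.6 CPM in the refractory and 48.0 CPM in the untreated tumour, and the sign of its log2 (0.02) turned with total-count scaling.

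Kinases and signalling proteins counted 16 members, with 6 higher, 2 lower and 8 between (median 0.69). MAK and NEDD9 led the list, and both p38 kinase genes of the arm were among the higher members. MAPK14 (p38 alpha) stood at 152 CPM in the refractory and 56.8 CPM in the untreated tumour, and MAPK13 (p38 delta) at 121 CPM in the refractory and 46.3 CPM in the untreated tumour. Their ratios were 2.68 (95% interval 2.59 to 2.78) and 2.61 (95% interval 2.51 to 2.72), so the intervals overlap. ITPR3, an inositol trisphosphate receptor of the endoplasmic reticulum, was the most abundant by CPM (324 CPM refractory, 143 CPM untreated). RIPK1, a kinase of death receptor signalling, stood at 76.8 CPM in the refractory and 46.8 CPM in the untreated tumour. PTK7, a pseudokinase receptor of the WNT and planar polarity pathways in the middle stretch, stood at 95.3 CPM in the refractory and 140 CPM in the untreated tumour, log2 -0.55. DEF6 and PACSIN1 were the lower members.

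Of 24 mitochondrial and metabolic genes, 8 were higher, 1 lower and 15 between (median 0.91). BPHL, a mitochondrial hydrolase, stood at 14.8 CPM in the refractory and 5.00 CPM in the untreated tumour, and MUT, now MMUT, methylmalonyl-CoA mutase, at 68.0 CPM in the refractory and 26.4 CPM in the untreated tumour. GLO1, the glyoxalase that detoxifies methylglyoxal, was the most abundant by CPM at 404 CPM in the refractory and 170 CPM in the untreated tumour (ratio 2.38, 95% interval 2.33 to 2.43). SIRT5, a mitochondrial deacylase, stood at 51.0 CPM in the refractory and 22.9 CPM in the untreated tumour. The 5 members in the middle stretch had a median of -0.46. Among them were PEX6, a peroxisomal ATPase (4.21 CPM refractory, 8.37 CPM untreated), and CYP39A1, an oxysterol hydroxylase (7.86 CPM refractory, 16.7 CPM untreated), both lower by about 2-fold in CPM but between on the scale with 1 CPM added.

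Among 18 genes of the secretory pathway, membrane traffic and chaperones, 6 were higher, 0 lower and 12 between (median 0.79). TXNDC5, a disulfide isomerase of the endoplasmic reticulum, stood at 186 CPM in the refractory and 57.6 CPM in the untreated tumour. It shares reads with the read-through locus BLOC1S5-TXNDC5 (18.0 CPM refractory, 6.10 CPM untreated), so the split between them is uncertain. TBC1D22B, a Rab GTPase-activating protein, stood at 33.0 CPM in the refractory and 11.2 CPM in the untreated tumour, CD2AP, an adaptor between membrane and actin, at 414 CPM in the refractory and 166 CPM in the untreated tumour, and SSR1, a subunit of the translocon-associated complex, at 335 CPM in the refractory and 155 CPM in the untreated tumour. SLC29A1 had a CPM ratio of 2.03, but with 1 CPM added 0 of the 8 members of the middle were past 2-fold. Among these, HSP90AB1, the constitutive HSP90 chaperone of which HER2 is a known client, stood at 2510 CPM in the refractory and 2554 CPM in the untreated tumour (ratio 0.983, 95% interval 0.976 to 0.990). At 1031 FPKM in the refractory and 1065 FPKM in the untreated tumour it was above every other gene described here, none of which passed 228 FPKM in the refractory or 118 FPKM in the untreated tumour. CNPY3, a chaperone of Toll-like receptors, was the lowest of the list (22.6 CPM refractory, 25.3 CPM untreated).

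None of the 10 ubiquitin ligases and related adaptors passed 2-fold in either direction (median 0.23), and 5 of them lie in the middle stretch. Over all genes 9.91% were 2-fold higher and 11.2% lower, so 0 of 10 says little about this list. FBXO9, an F-box protein, stood at 60.0 CPM in the refractory and 30.9 CPM in the untreated tumour, and BTBD9, a cullin adaptor, at 29.4 CPM in the refractory and 15.97 CPM in the untreated tumour. RNF144B, a RING ligase, was lowest (8.33 CPM refractory, 11.8 CPM untreated), and UBR2, an N-end rule ligase of the middle stretch, was most abundant by CPM (109 CPM refractory, 123 CPM untreated).

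The 10 secreted, receptor and surface proteins were the most divided list, with 6 higher, 2 lower and 2 between, a median of 1.62 and an interquartile range of 2.66. Of its 22 fixed genes, 10 are among the genes described here. Beside PKHD1, EDN1, TNFRSF21 and UNC5CL, the higher members were CD83, a surface protein of mature dendritic cells (11.8 CPM in the refractory, 4.39 CPM in the untreated tumour), and DCDC2, a doublecortin-domain protein of cilia, which had 190 counts in the refractory and 5 in the untreated library (ratio 49.0, 95% interval 20.6 to 153). CLIC5 and F13A1 were lower. The ectoenzymes ENPP4 and ENPP5, neighbours in the middle stretch, lay on opposite sides: ENPP4 at 128 CPM in the refractory and 189 CPM in the untreated tumour, ENPP5 at 32.3 CPM in the refractory and 20.7 CPM in the untreated tumour.

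**Figure D4:**
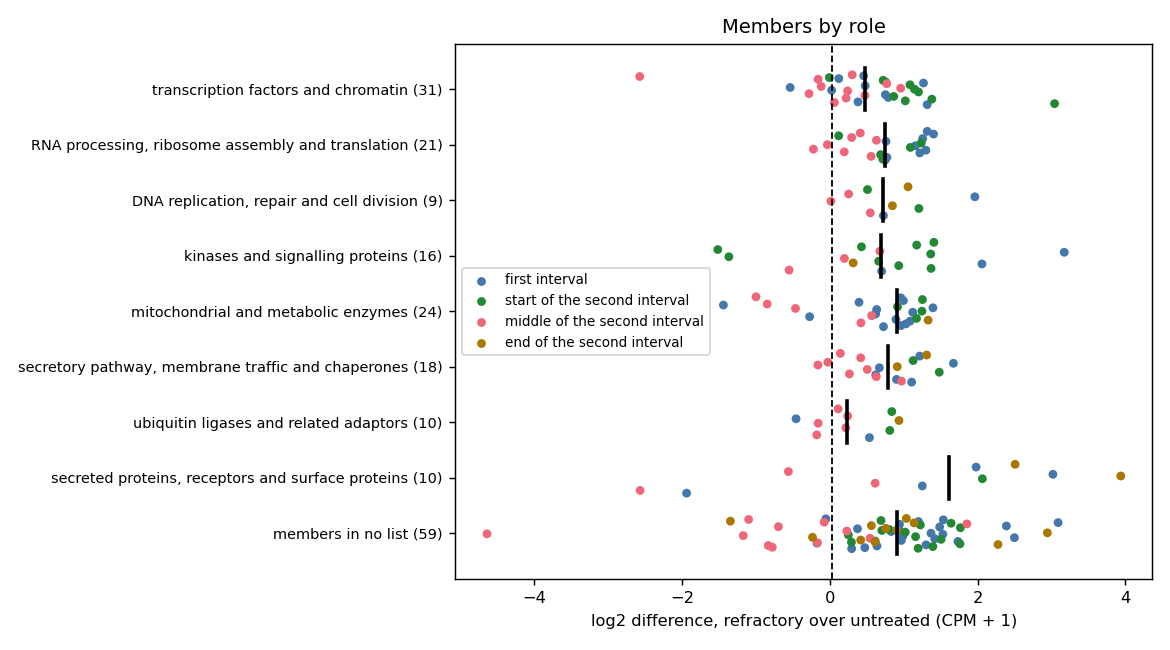
Log2 difference (refractory over untreated, CPM + 1) of the genes of 8 role lists and of the 59 in no list; each point is a gene, coloured by stretch, black bars are list medians and the dashed line is the median of all genes (0.03). List medians run from 0.23 (ubiquitin ligases) to 1.62 (secreted and surface proteins).

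The 59 genes in no list had 25 higher, 4 lower and 30 between (median 0.91). C6orf62, of unknown function, was the most abundant of them by CPM (335 CPM in the refractory, 135 CPM in the untreated tumour). C6orf106, now ILRUN, an inhibitor of innate immune transcription, stood at 227 CPM in the refractory and 66.0 CPM in the untreated tumour, and KCTD20 at 160 CPM in the refractory and 46.6 CPM in the untreated tumour. FAM65B, now RIPOR2, had 276 counts in the refractory and 6 in the untreated library (ratio 59.3, 95% interval 26.9 to 163). C6orf223 was the lone gene of the middle stretch called 2-fold higher with 1 CPM added (24.0 CPM refractory, 5.91 CPM untreated). Among the listed genes of that stretch, SUPT3H and SLC29A1 had CPM ratios of 2.09 and 2.03 but lay between on that scale. FAM65B, KCTD20, C6orf223 and C6orf106 were named after their values were seen.

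At the outer ends, NQO2, a quinone reductase and the first gene of the first interval, stood at 7.43 CPM in the refractory and 4.09 CPM in the untreated tumour. TRIM38, a RING ligase of innate immunity and the last of that interval, was level (66.7 CPM refractory, 69.2 CPM untreated). LRRC16A, the one before it among the genes described here, differed 5.81-fold. LRRC1, a scaffold of cell polarity and the last gene of the second interval, stood at 62.7 CPM in the refractory and 27.9 CPM in the untreated tumour. At the count minimum, FAM50B (112 reads in the refractory, 0 in the untreated library) and the unnamed loci LOC101929346 (112 refractory, 60 untreated) and LOC101928281 (116 refractory, 41.2 untreated) lay just inside. SLC17A4, an intestinal phosphate transporter (82 reads refractory, 0 untreated), and the unnamed RP1-27K12.2 (92 refractory, 39 untreated) and LOC102723648 (82 refractory, 75 untreated) lay just outside.

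Level and length changed the picture little. In the lowest, middle and highest of 3 equal groups by mean level the median log2 was 0.76, 0.63 and 0.87, against -0.04, 0.10 and 0.02 for all genes in the same ranges. In the shortest, middle and longest of 3 such groups by the length implied by counts and FPKM it was 0.77, 0.77 and 0.58, against 0.16, 0.03 and -0.14. Of the lower calls, 8 lay in the lowest group by level (12.1% of that group) and 0 in the highest. For all genes in the same ranges the shares were 20% and 5.24%, with the same tilt. In the authors' deposited table, 21 of the 198 genes (10.6%) had p under 0.05, 14 higher and 7 lower, against 9.02% of all genes with 100 reads. That p sets 1 library against 1.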

How the data were processed

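RNA of 1 T-DM1-refractory and 1 untreated xenograft was analysed from 1 deposited table, whose columns were assigned by the treatment and title labels. The deposited read counts are expected counts per gene, not always whole. A second pair of deposited columns is headed FPKM, that is, scaled for depth and for the length of each gene. The authors' log2 fold change, refractory over untreated, lay within 0.00261 of the ratio of TMM-scaled counts on that scale, over the genes described here with more than 50 reads in both libraries. The authors' p-value compares 1 library with 1. The authors named edgeR 3.26.8, RSEM 1.2.28, bcl2fastq 2.20 and STAR 2.7.0e and the builds GRCh38 and GRCm38, per the submitters' processing notes. What each was used for, the annotation, any filter, the strand setting and the use of the mouse build were not given in the sources used here.

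Counts were rounded. TMM factors came from edgeR 4.0.16 (R 4.3.3) and gave the library sizes behind CPM. DESeq2 1.42.0 gave the median-of-ratios scaling. A gene was called at 2-fold on log2(CPM + 1), a scale that understates the change of low genes. Intervals are exact 95% Poisson intervals (Clopper-Pearson given the sum). The reads carry no molecular identifiers and may repeat molecules, so intervals and floors cover counting error only. Scripts were tested on simulated data with known folds. Starts in the table count from 0, since adding 1 matched GENCODE 29 coding starts for 169 of 174 genes, and are printed counted from 1. The table gives 18 of the genes a single position and no coding interval.

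The genes, the role lists and the tests were chosen with earlier results of these data known. Genes are named if they are among the 12 largest or 10 lowest log2 at 5 CPM or more, the 8 highest by mean CPM, the 2 largest, the lowest or the most abundant of a role list, next to the count minimum, or first or last in an interval. Of these, 1 is not reported here. Other genes, and the bounds of the middle stretch, were chosen after their values were seen. Alternatives were 3 scalings, pseudocounts of 0.1 and 5 CPM, no filter, a filter of 1000 reads and FPKM with 1 FPKM added. Others were thresholds of 1.5-fold and 4-fold, removal of the GC and length trend (10 bins each, GENCODE 29 transcripts, 96.0% of the genes), and keeping the genes left out by symbol. Protein-coding genes alone, and the arm without its middle stretch, were added after the data were seen.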

Additional observations from a re-analysis of the deposited data

How the results depend on the processing

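No paired analysis was possible because each group has 1 library, and no library can be left out. The count of 70 genes at least 2-fold higher ran from 52 to 79 over the alternatives that keep the 2-fold threshold, and the median log2 stayed between 0.69 and 0.80 with the 3 scalings, a pseudocount of 0.1 CPM, 1000 reads and the GC and length trend removed. With a pseudocount of 5 CPM, 3 genes were 2-fold lower, against 6.15% of all genes. The median was then 0.57, and the medians of the first interval and the start of the second were 0.74 and 0.79. With no filter, the 239 added genes under 100 reads brought the median to 0.00 and the share above 0 to 49.2%. Over all 29972 genes with no filter the median was also 0.00, and 32% were above 0. At least 2-fold higher were then 71 of 437 genes, against 4.63% of all genes. The medians of the first interval, the start and the end of the second were 0.027, 0.094 and 0.00 with no filter. The count of lower genes was 3 of 148 with 1000 reads, against 8.92% of all genes. On FPKM with 1 FPKM added it was 6, against 8.31% of all genes, and the median was 0.68. Without the middle stretch the count of lower genes was 5, with a median of 0.98 and 91.5% above 0. At 1.5-fold 120 genes were higher (19.4% of all genes), and at 4-fold 12 were higher and 3 lower (2.63% and 3.69% of all genes). The middle stretch kept a median between 0.00 and 0.22 under each alternative that includes it. Of 54 named genes, 3 changed sign under an alternative (PPP2R5D, UBR2 and TRIM38), none of them called. Of the 10 lower genes, those other than TREML2, RUNX2 and CLIC5 had under 1000 reads in both libraries.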

Other observations

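The genes of the intervals that are left out by symbol give the same measure in genes not described above. For this split the middle ran from NFYA up to the start of TNFRSF21 at 47.23 Mb, past its end at 46.7 Mb given above. Outside it there were 18, at a median log2 of 0.70, of which 6 were at least 2-fold higher and 1 was lower. Inside it there were 10, at a median of 0.39, of which 1 was higher and 1 lower. Over all genes 9.91% were 2-fold higher and 11.2% lower, so 1 of 10 each way is near those shares. That list of symbols was made with earlier results of these libraries known, so these genes are no independent support.

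Loci that RefSeq does not class as protein-coding, or does not list, and the read-through locus made up 14 of the 198 genes. They had a median log2 of 0.80, with 4 at least 2-fold higher and 1 lower, near the median of 0.75 over the 184 protein-coding genes. The unnamed LOC102723521 was the most abundant of them by CPM, at 75.02 CPM in the refractory and 27.9 CPM in the untreated tumour. RN7SK, a small nuclear RNA without a poly(A) tail and with many pseudogene copies, stood at 9.34 CPM in the refractory and 4.51 CPM in the untreated tumour. The pseudogene HTATSF1P2 stood at 36.2 CPM in the refractory and 29.3 CPM in the untreated tumour.

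The 3 TMEM14 genes lie in the first interval and at the end of the second, and their sequences are alike, so reads may be divided among them. TMEM14B stood at 70.7 CPM in the refractory and 23.7 CPM in the untreated tumour, TMEM14C at 64.0 CPM in the refractory and 31.6 CPM in the untreated tumour, and TMEM14A at 58.0 CPM in the refractory and 27.8 CPM in the untreated tumour. TMEM14C, needed for haem synthesis in mitochondria, was just under 2-fold with 1 CPM added (log2 0.997).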
